A study of Mus musculus with 13 samples.

Results

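The nuclear receptors are transcription factors that bind DNA through a pair of zinc fingers and, in most of them, bind a small fat-soluble ligand through a separate pocket. The family was taken as 47 genes named by symbol, and all 47 were found among the 23361 gene symbols measured. They were followed in RNA from mouse hepatocellular carcinoma, the main cancer of hepatocytes. The tumours came from Mst1-/-; Mst2Flox/Flox mice of a mixed background (C57BL/6; 129Sv), which lack the Hippo pathway kinase Mst1 from birth and had the floxed Mst2 gene removed by an adenovirus carrying Cre. The siYap group (5 libraries) received intravenous lipid nanoparticles with an siRNA against Yap, the co-activator that the Hippo kinases hold back, for 9 days. The siLuc group (8 libraries) received the same kind of particle with luciferase siRNA, for which mice have no target gene, also for 9 days. Both groups thus carry the loss of both kinases, and neither is normal liver. Whether libraries of a group come from different animals is not stated in the labels, and p-values refer to the spread between libraries.

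A nuclear receptor bound to its ligand exchanges corepressors for coactivators and so switches genes on. Many of the receptors that read lipids, bile acids and foreign compounds bind DNA as a pair with a retinoid X receptor, while the steroid receptors pair with themselves. In the liver the family governs bile acid, lipid and drug metabolism, and HNF4 alpha, encoded by Hnf4a, is one of the factors that hold hepatocyte identity.

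Each library held 23637021 to 37043914 gene-assigned fragments. siYap replicates 1 and 3 had the lowest totals and also held the most ribosomal precursor RNA (Rn45s at 1160 and 1882 CPM, against 584 to 740 CPM in the other siYap libraries and 479 to 812 CPM in siLuc). Yap1 had 4.08, 4.17, 2.72, 2.22 and 3.23 FPKM in siYap replicates 1 to 5, against a lowest, median and highest of 8.101, 10.2 and 11.9 FPKM in siLuc, and no siYap library reached a siLuc one. A single siLuc library, replicate 8, differed in sex from the rest, with 28874 fragments from 4 genes of the Y chromosome, where no other library had more than 11. Levels are given as FPKM, which is fragments per kilobase of transcript scaled for depth, and hepatocyte markers summed to 13960 to 26900 FPKM in siYap and 18560 to 26460 FPKM in siLuc libraries, with 3 of 8 lower and 5 not called. Markers of other cells moved in both directions, where 16.0% of all tested genes were higher and 14.8% lower. Neutrophil markers were higher for 5 of 6 (summed 159.5 to 1173 FPKM in siYap, against 37.4 to 192 FPKM in siLuc), stellate cell and fibroblast markers for 3 of 9 (169 to 659.5 FPKM in siYap, against 59.7 to 293 FPKM in siLuc), and endothelial markers for 3 of 8 (47.7 to 116 FPKM in siYap, against 41.0 to 110.4 FPKM in siLuc). Bile duct markers were lower for 3 of 8 (161 to 1142 FPKM in siYap, against 1939 to 5055 FPKM in siLuc), macrophage markers for 4 of 8 with 1 higher (56.5 to 106 FPKM in siYap, against 137 to 242 FPKM in siLuc), and the 7 lymphocyte markers were not called (2.18 to 7.698 FPKM in siYap, against 2.03 to 8.37 FPKM in siLuc). No tested marker of these lists was at 0 in all libraries. In whole tumour RNA, fewer cells of a type and less RNA per cell cannot be told apart, and the part of these cells in the receptor changes below was not tested.

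Every nuclear receptor gene that passed the test was higher in siYap than in siLuc tumours. Of the 47 members, 41 were abundant enough to test, and 17 of these rose in siYap tumours, which is 41.5% of those tested. None fell. Over all 15132 genes tested the same rule (edgeR's quasi-likelihood test, adjusted p under 0.05) called 16.0% of genes higher and 14.8% lower. At an unadjusted p under 0.05 the counts were 20 members higher and 0 lower, a level at which all genes were not counted. DESeq2 called 18 members higher and 0 lower, beside 2670 higher and 2639 lower among 15132 genes. The log2 fold change was above 0 for 36 of the 41 members (87.8%, beside 49.8% of all genes), and its median was 0.52, beside -0.0026 over all genes. In 7 members (Rxra, Rxrg, Nr1i3, Nr2f2, Nr3c1, Esrrg and Nr6a1) each siYap library lay above each siLuc library, and in none did each lie below. Among all tested genes such separation was seen upwards in 5.57% and downwards in 5.66%.

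**Figure D1:**
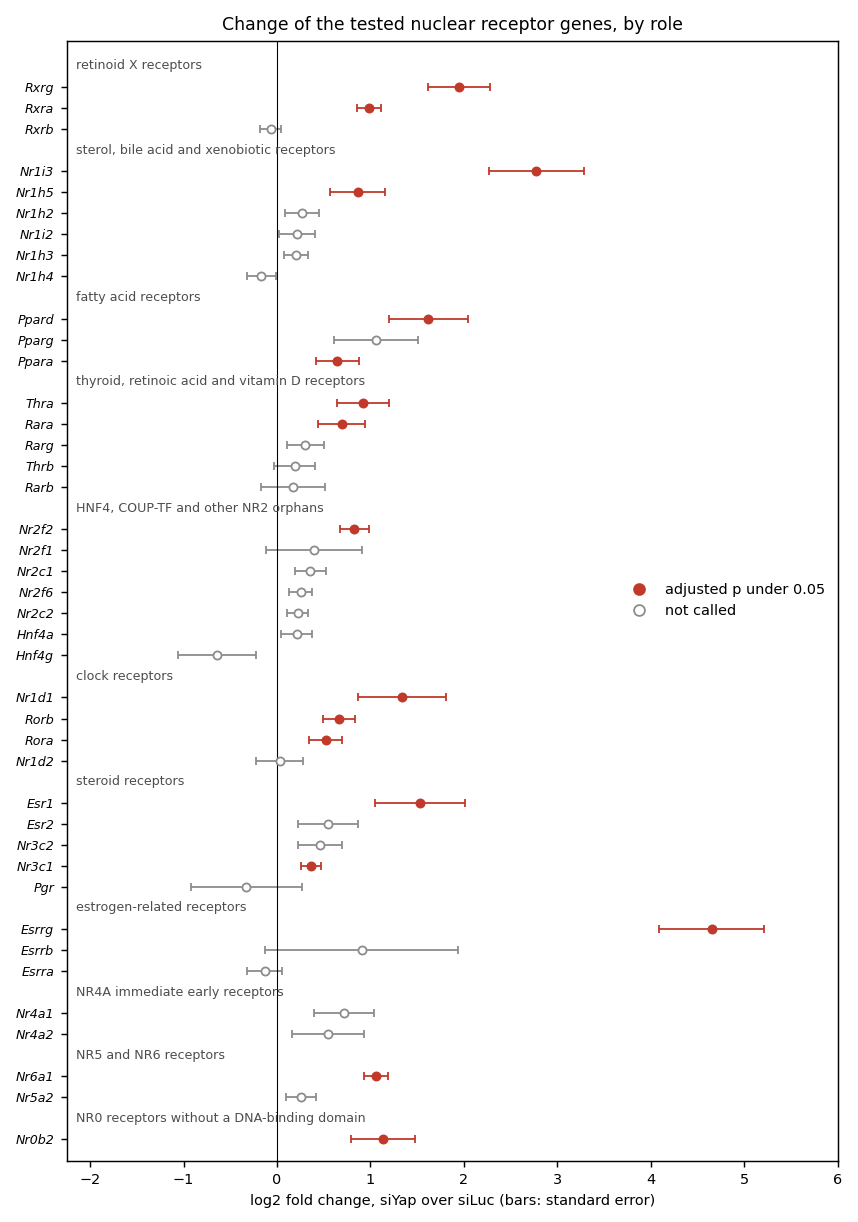
Log2 fold change of siYap over siLuc for the 41 tested nuclear receptor genes, grouped by role, with the standard error as bars. Filled points mark the 17 genes with an adjusted p under 0.05, all to the right of 0, and the point farthest right is Esrrg at 4.65.

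The size of this count rested in part on the libraries of lowest total. Without siYap replicate 3, 10 of 41 tested members (24.4%) were higher, beside 11.3% of all genes tested in that fit. Without siYap replicates 1 and 3, 8 of 43 (18.6%) were higher, beside 9.82% of all genes, and 7 of these 8 were among the 17. The median log2 fold change of the members was then 0.39, beside -0.03 over all genes, and 38 of 43 stayed above 0. In FPKM, siYap replicate 3 was the highest siYap library for 9 of the 17 members and siYap replicate 1 for 4, while siLuc replicate 8 was the lowest siLuc library for 10. The part of RNA quality and of sex in these values was not tested. Rxra, Rxrg, Nr1i3, Nr2f2, Esrrg and Nr6a1 kept their call in all 25 alternative fits.

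The order of levels among the receptors was led by the same genes in both groups. Hnf4a stood first in each, at 99.6 ± 28.5 FPKM in siYap tumours and 87.5 ± 16.5 FPKM in siLuc tumours (SD, n = 5 and n = 8, as for all means below). Nr1h4, Nr1d2, Nr1i2 and Ppara followed in siLuc tumours. In siYap tumours Rxra held rank 4 and Nr1i3 rank 5, against ranks 7 and 14 in siLuc tumours. At 10 FPKM or more on average there were 14 members in siYap and 12 in siLuc tumours, and at 1 FPKM or more there were 33 in siYap and 30 in siLuc tumours. Too low to test were 6 members, Vdr, Nr2e1, Nr2e3, Nr4a3, Nr5a1 and Nr0b1, with at most 0.441 FPKM and 24 fragments in any library. Nr0b1, an adrenal and gonadal repressor, had no fragment in any library.

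**Figure D2:**
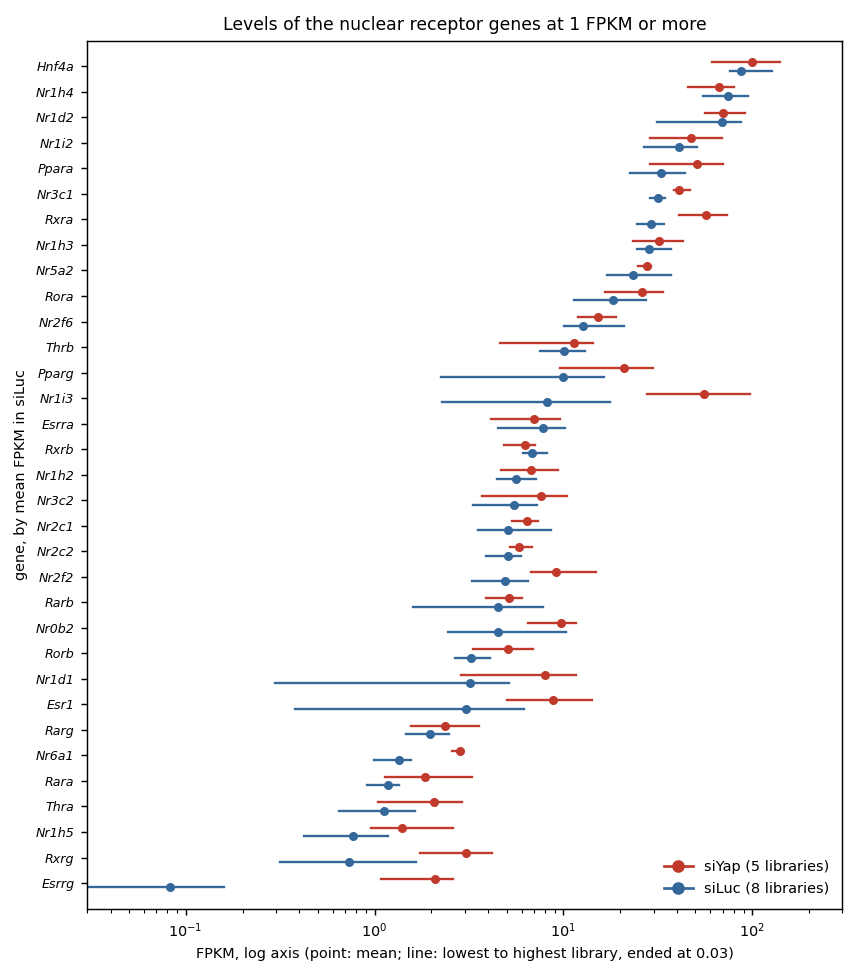
Mean FPKM (points) and range over libraries (lines) of the 33 members that averaged 1 FPKM or more in a group, on a log axis, ordered by the siLuc mean. Most siYap points lie on or right of the siLuc points, and Nr1i3, Rxrg and Esrrg show the widest gaps.

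The shared partners rose. Rxra and Rxrg, which encode retinoid X receptors alpha and gamma, were higher in siYap tumours, and Rxrb was not called. Rxra (chromosome 2, 27676440 to 27762957, plus strand), the main retinoid X receptor of liver, had 40.7, 56.2, 73.7, 49.6 and 62.9 FPKM in siYap replicates 1 to 5, against a lowest, median and highest of 24.5, 29.1 and 34.04 FPKM in siLuc. Its log2 fold change of 0.99 ± 0.13 (SE) had an adjusted p of 9.20e-05, and the lowest siYap library (replicate 1) lay above the highest siLuc one. Rxrg (chromosome 1, 167598384 to 167639623, plus strand), best known from muscle and brain, had 1.75, 4.19, 3.21, 2.81 and 3.32 FPKM in siYap replicates 1 to 5, against 0.315 to 1.65 FPKM in siLuc with a median of 0.691 (log2 fold change 1.95 ± 0.33 SE, adjusted p = 0.000661). The groups came close at a single point, since siYap replicate 1 was the lowest of its group and siLuc replicate 1 stood far above the other siLuc libraries. Even so Rxrg remained a small part of the retinoid X receptor message, at a median of 0.0528 of the Rxra level in siYap libraries and 0.0244 in siLuc libraries. Rxrb, the widely expressed beta form, was at 6.25 ± 0.925 FPKM in siYap tumours and 6.79 ± 0.7004 FPKM in siLuc tumours (log2 fold change -0.07 ± 0.11 SE, adjusted p = 0.661).

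Among the receptors for sterols, bile acids and foreign compounds, Nr1i3 and Nr1h5 rose and the other 4 were not called. Nr1i3 (chromosome 1, 171213970 to 171220701, plus strand) encodes CAR, the constitutive androstane receptor, which induces drug-metabolising enzymes. It had 43.5, 27.6, 97.2, 73.05 and 35.1 FPKM in siYap replicates 1 to 5, against a lowest, median and highest of 2.28, 6.67 and 17.5 FPKM in siLuc. Its log2 fold change was 2.77 ± 0.51 (SE, adjusted p = 0.00136), a 6.74-fold higher mean. Every siYap library lay above every siLuc library, although siLuc libraries alone differed 7.699-fold, with replicates 4 and 7 the highest. Exons of the opposite-strand gene Tomm40l cover 74.9% of the Nr1i3 exon bases, and how the counting used strand is not given in the sources used here, so reads from both genes may be mixed. Tomm40l, a mitochondrial import protein, was at 14.8 ± 6.16 FPKM in siYap and 7.69 ± 1.095 FPKM in siLuc tumours, with a log2 fold change of 0.97 ± 0.19 (SE, adjusted p = 0.00142).

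The sister xenobiotic receptor PXR, encoded by Nr1i2, had 28.8, 38.6, 48.3, 51.2 and 69.5 FPKM in siYap replicates 1 to 5, against 26.7 to 51.1 FPKM in siLuc with a median of 44.1 (log2 fold change 0.22 ± 0.19 SE, adjusted p = 0.413), and the groups overlapped widely. The level of Nr1i3 relative to Nr1i2 was therefore different in the groups. It lay at 0.506 to 2.01 (median 1.43) in siYap libraries and at 0.0446 to 0.658 (median 0.162) in siLuc libraries, so that CAR message exceeded PXR message in some siYap libraries and in no siLuc library.

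Nr1h5, the mouse FXR beta gene, had 2.59, 1.002, 0.955, 1.35 and 1.104 FPKM in siYap replicates 1 to 5, against 0.421 to 1.18 FPKM in siLuc with a median of 0.779 (log2 fold change 0.87 ± 0.29 SE, adjusted p = 0.0367). Replicate 1 stood apart above the other siYap libraries, and replicates 2, 3 and 5 lay inside the siLuc range. The call ended when siLuc replicate 1, 2, 6 or 8 or siYap replicate 1 or 4 was left out, with an adjusted p of up to 0.154. The bile acid receptor FXR (Nr1h4) had 45.8, 69.4, 66.7, 79.98 and 71.04 FPKM in siYap replicates 1 to 5, against 54.6 to 95.4 FPKM in siLuc with a median of 73.96 (log2 fold change -0.17 ± 0.15 SE, adjusted p = 0.43), and siYap replicate 1 was the lowest library of all. Both oxysterol receptors were also not called. LXR alpha (Nr1h3) had 23.3, 31.3, 32.7, 42.9 and 30.5 FPKM in siYap replicates 1 to 5, against 24.5 to 36.9 FPKM in siLuc with a median of 27.7 (log2 fold change 0.20 ± 0.13 SE, adjusted p = 0.241), and LXR beta (Nr1h2) was at 6.699 ± 1.696 FPKM in siYap tumours and 5.63 ± 1.004 FPKM in siLuc tumours. In Nr1h3 the siYap libraries spanned the whole siLuc range, and siLuc replicate 8 stood above its group.

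Of the fatty acid receptors, Ppara and Ppard rose and Pparg did not pass the test. Ppara, the driver of fatty acid oxidation in the fasted liver, had 29.99, 28.8, 70.4, 60.6 and 66.02 FPKM in siYap replicates 1 to 5, against 22.5 to 43.8 FPKM in siLuc with a median of 34.5 (log2 fold change 0.65 ± 0.23 SE, adjusted p = 0.0445). The siYap libraries split, with replicates 3, 4 and 5 above every siLuc library and replicates 1 and 2 inside the siLuc range. The call ended without siLuc replicate 1, 2, 3, 4, 6 or 7 or siYap replicate 3, 4 or 5, with an adjusted p of up to 0.141. Ppard, the delta form with broad expression, stayed under 1 FPKM on average, at 0.552 ± 0.388 FPKM in siYap tumours and 0.191 ± 0.0488 FPKM in siLuc tumours, and its siYap libraries ran from 0.149 FPKM in replicate 4 to 1.097 FPKM in replicate 3 (log2 fold change 1.62 ± 0.42 SE, adjusted p = 0.0101). It was not called without siYap replicates 1 and 3. Pparg, best known from fat cells and steatotic liver, had 9.56, 18.8, 27.2, 29.7 and 19.4 FPKM in siYap replicates 1 to 5, against 2.26 to 16.4 FPKM in siLuc with a median of 10.1 (log2 fold change 1.06 ± 0.45 SE, adjusted p = 0.0877). Its siLuc libraries differed 7.28-fold among themselves, replicates 2 and 8 being the lowest. Replicates 2, 3, 4 and 5 of siYap lay above every siLuc library, and siYap replicate 1 lay below the siLuc median.

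In the thyroid hormone and retinoic acid receptors, the alpha forms Thra and Rara rose and the other tested forms were not called. Thra had 2.89, 2.11, 2.87, 1.04 and 1.47 FPKM in siYap replicates 1 to 5, against 0.6496 to 1.64 FPKM in siLuc with a median of 1.102 (log2 fold change 0.92 ± 0.28 SE, adjusted p = 0.0209). Replicates 1, 2 and 3 lay above the siLuc range, and replicates 4 and 5 lay inside it. The call ended without siYap replicate 1 or 3 (adjusted p of up to 0.0728) and when counts were summed per number in the file names, which may stand for an animal (adjusted p = 0.0576). Thra shares 5.70% of its exon bases with Nr1d1 on the opposite strand, and Nr1d1 shares 8.55% of its own. Thrb, the main thyroid hormone receptor of hepatocytes, had 12.2, 12.2, 14.4, 13.7 and 4.61 FPKM in siYap replicates 1 to 5, against 7.52 to 12.96 FPKM in siLuc with a median of 9.75 (log2 fold change 0.19 ± 0.22 SE, adjusted p = 0.532), and siYap replicate 5 alone lay below all siLuc libraries.

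Rara had 2.24, 1.13, 3.27, 1.16 and 1.42 FPKM in siYap replicates 1 to 5, against 0.916 to 1.34 FPKM in siLuc with a median of 1.21 (log2 fold change 0.69 ± 0.25 SE, adjusted p = 0.0466). Replicates 1 and 3 carried the difference in level, since the other 3 siYap libraries lay close to or inside the siLuc range. The call ended without siYap replicate 1 or 3 and without each siLuc replicate in turn, with an adjusted p of up to 0.198. Rarb and Rarg were at 5.16 and 2.36 FPKM on average in siYap tumours, against 4.53 and 1.96 FPKM in siLuc tumours, with adjusted p of 0.728 and 0.264. Rarb shares 34.1% of its exon bases with Top2b on the opposite strand, so its level is uncertain. The vitamin D receptor gene Vdr was too low to test, at no more than 0.124 FPKM in siYap and 0.115 FPKM in siLuc libraries.

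The HNF4 and COUP-TF branch held the most abundant member and 1 call among 7 tested, a count near the share over all genes (16.0% higher). Hnf4a had 61.1, 89.3, 108, 99.9 and 139 FPKM in siYap replicates 1 to 5, against 76.2 to 127 FPKM in siLuc with a median of 82.5 (log2 fold change 0.21 ± 0.16 SE, adjusted p = 0.34). siYap replicate 1 was the lowest library of all and siYap replicate 5 the highest, with siLuc replicate 8 apart above its group, so the groups overlapped. The gamma form Hnf4g stayed under 0.3 FPKM in all libraries and had the lowest log2 fold change in the family, -0.64 ± 0.42 (SE, adjusted p = 0.258).

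Nr2f2 (chromosome 7, 70351944 to 70366735, minus strand) encodes COUP-TFII, an orphan receptor of veins, mesenchyme and hepatocytes. It had 14.8, 8.91, 8.08, 7.03 and 6.77 FPKM in siYap replicates 1 to 5, against a lowest, median and highest of 3.29, 4.81 and 6.53 FPKM in siLuc (log2 fold change 0.83 ± 0.16 SE, adjusted p = 0.00134). Replicate 1 was far above the other siYap libraries, and the lowest siYap value (replicate 5) was still above the highest siLuc value (replicate 1). The stellate cell marker sum was also highest in siYap replicate 1 and the endothelial sum in siYap replicate 4, and their part was not tested. The opposite-strand transcript B130024G19Rik shares 7.46% of the Nr2f2 exon bases.

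Nr2f6, the orphan EAR2, had 18.9, 15.7, 11.9, 14.6 and 15.5 FPKM in siYap replicates 1 to 5, against 10.1 to 20.98 FPKM in siLuc with a median of 11.5 (log2 fold change 0.26 ± 0.12 SE, adjusted p = 0.128). Its groups overlapped, siLuc replicate 1 was the highest library of all, and 54.4% of its exon bases are shared with Ocel1 on the opposite strand. The testicular orphan receptors Nr2c1 and Nr2c2 were at 6.45 and 5.79 FPKM on average in siYap tumours, against 5.08 and 5.07 FPKM in siLuc tumours (adjusted p = 0.117 and 0.149), and Mrps25 shares 30.7% of the Nr2c2 exon bases. Nr2f1 (COUP-TFI) stayed under 1 FPKM in all libraries, and the neural receptor genes Nr2e1 and Nr2e3 were too low to test.

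Of the 4 clock receptors, 3 rose, where 16.0% of all tested genes were higher. None of these calls was kept in all 25 alternative fits. Rev-erb proteins repress the clock gene Arntl and Ror proteins activate it through the same DNA element. Nr1d1, encoding Rev-erb alpha, had 11.7, 9.28, 10.1, 2.86 and 5.93 FPKM in siYap replicates 1 to 5, against 0.297 to 5.18 FPKM in siLuc with a median of 3.55 (log2 fold change 1.34 ± 0.47 SE, adjusted p = 0.0441). siYap replicate 4 lay inside the siLuc range, and siLuc libraries differed 17.4-fold, replicate 8 being far lowest. The call ended without siLuc replicate 1, 3, 5, 6 or 7 or siYap replicate 1, 2, 3 or 5 (adjusted p of up to 0.114). The hour at which tumours were taken is not given, and both Rev-erb genes cycle over the day. Nr1d2, encoding Rev-erb beta, had 56.5, 71.98, 61.5, 91.7 and 68.6 FPKM in siYap replicates 1 to 5, against 31.1 to 87.2 FPKM in siLuc with a median of 75.6 (log2 fold change 0.03 ± 0.25 SE, adjusted p = 0.944), so the siYap libraries lay within the siLuc range apart from replicate 4, the highest of all.

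Rora, encoding Ror alpha, had 16.6, 25.5, 33.5, 28.9 and 25.3 FPKM in siYap replicates 1 to 5, against 11.4 to 27.3 FPKM in siLuc with a median of 16.7 (log2 fold change 0.52 ± 0.18 SE, adjusted p = 0.0357). The ranges overlapped broadly, with siYap replicate 1 near the siLuc median. The call ended without siLuc replicate 1, 3, 4, 5 or 6 or siYap replicate 2, 3, 4 or 5 (adjusted p of up to 0.107). Rorb, known mainly from brain and retina, had 5.13, 3.58, 6.8998, 3.34 and 6.53 FPKM in siYap replicates 1 to 5, against 2.67 to 4.099 FPKM in siLuc with a median of 3.15 (log2 fold change 0.66 ± 0.17 SE, adjusted p = 0.0105). Replicates 1, 3 and 5 lay above every siLuc library and replicates 2 and 4 inside the siLuc range, and the call was kept without each single library but not without siYap replicates 1 and 3 together, where the log2 fold change was 0.48.

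Among the steroid receptors, Nr3c1 and Esr1 rose. Nr3c1, the glucocorticoid receptor gene, had 39.3, 38.5, 39.9, 47.1 and 40.3 FPKM in siYap replicates 1 to 5, against a lowest, median and highest of 28.9, 32.1 and 34.6 FPKM in siLuc (log2 fold change 0.36 ± 0.11 SE, adjusted p = 0.0196). The change was the smallest called in the family, yet the groups did not overlap, because both were tight: the highest library was 1.22 times the lowest in siYap and 1.199 times in siLuc. Without siYap replicate 4, the highest, the call ended (adjusted p = 0.0569), as it did when counts were summed per file-name number (adjusted p = 0.0621). Esr1, encoding estrogen receptor alpha, had 7.86, 5.004, 14.2, 11.3 and 5.76 FPKM in siYap replicates 1 to 5, against 0.377 to 6.18 FPKM in siLuc with a median of 3.22 (log2 fold change 1.53 ± 0.48 SE, adjusted p = 0.0271). Replicates 3 and 4 were the highest, replicates 2 and 5 lay below the highest siLuc library (replicate 7), and siLuc replicate 8 was the lowest of all. The call ended without siYap replicate 3 or 4 (adjusted p of up to 0.0854), while without siLuc replicate 8 it was kept. The mineralocorticoid receptor gene Nr3c2 was at 7.58 ± 2.46 FPKM in siYap tumours and 5.49 ± 1.45 FPKM in siLuc tumours (log2 fold change 0.46 ± 0.24 SE, adjusted p = 0.147). Esr2 and Pgr, for estrogen receptor beta and the progesterone receptor, stayed under 0.5 FPKM in each library.

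Esrrg had the largest fold change in the family. It (chromosome 1, 187608791 to 188214885, plus strand) encodes the orphan estrogen-related receptor gamma, which drives genes of oxidative metabolism and is abundant in heart and kidney. It had 1.08, 1.91, 2.25, 2.61 and 2.55 FPKM in siYap replicates 1 to 5, against a lowest, median and highest of 0, 0.0725 and 0.159 FPKM in siLuc (log2 fold change 4.65 ± 0.56 SE, adjusted p = 5.22e-05). No siLuc library came near the siYap range, and siLuc replicate 8 had no fragment. In fragments the gene had 156 to 457 in siYap libraries and 0 to 31 in siLuc libraries, and the ratio of mean FPKM was 25.2. Esrra, which encodes the alpha form, was at 6.95 ± 2.22 FPKM in siYap tumours and 7.81 ± 1.86 FPKM in siLuc tumours (log2 fold change -0.13 ± 0.19 SE, adjusted p = 0.612). Esrrg thus stood at 0.247 to 0.430 of the Esrra level in siYap libraries and at no more than 0.0214 of it in siLuc libraries. Esrrb, a receptor of stem cells and the inner ear, stayed under 0.2 FPKM.

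No immediate early receptor of the NR4A class was called. Nr4a1 was at 0.8797 ± 0.597 FPKM in siYap tumours and 0.541 ± 0.0905 FPKM in siLuc tumours (log2 fold change 0.72 ± 0.32 SE, adjusted p = 0.104), with siYap replicate 3 far above the other siYap libraries. Nr4a2 was under 0.3 FPKM in all libraries, and Nr4a3 was too low to test.

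Nr6a1 and Nr0b2 rose, and Nr5a2 was not called. Nr6a1 (chromosome 2, 38723370 to 38927688, minus strand) encodes germ cell nuclear factor, a repressor of pluripotency genes in the embryo. It had 2.86, 2.57, 2.78, 2.94 and 2.92 FPKM in siYap replicates 1 to 5, against a lowest, median and highest of 0.988, 1.37 and 1.55 FPKM in siLuc (log2 fold change 1.06 ± 0.13 SE, adjusted p = 4.23e-05). The groups were apart and both were tight, with a spread of 1.15-fold within siYap and 1.57-fold within siLuc. Nr5a2, encoding LRH-1, an activator of bile acid synthesis genes, had 24.7, 28.8, 27.3, 29.2 and 28.4 FPKM in siYap replicates 1 to 5, against 16.997 to 36.9 FPKM in siLuc with a median of 21.8 (log2 fold change 0.25 ± 0.16 SE, adjusted p = 0.248), and siLuc replicate 1 lay above all siYap libraries. Nr0b2 encodes SHP, a receptor without a DNA-binding domain that FXR induces and that represses bile acid synthesis. It had 10.9, 9.16, 11.7, 10.3 and 6.46 FPKM in siYap replicates 1 to 5, against 2.46 to 10.3 FPKM in siLuc with a median of 3.802 (log2 fold change 1.14 ± 0.34 SE, adjusted p = 0.0209). siLuc replicate 1 stood apart at the siYap level and the other siLuc libraries lay below every siYap library, while without siYap replicate 1 or 3 the adjusted p was up to 0.0566. Relative to Nr1h4, the Nr0b2 level was at 0.0909 to 0.239 (median 0.132) in siYap libraries and at 0.0257 to 0.151 (median 0.0582) in siLuc libraries. The steroidogenic factor gene Nr5a1 was too low to test.

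**Figure D3:**
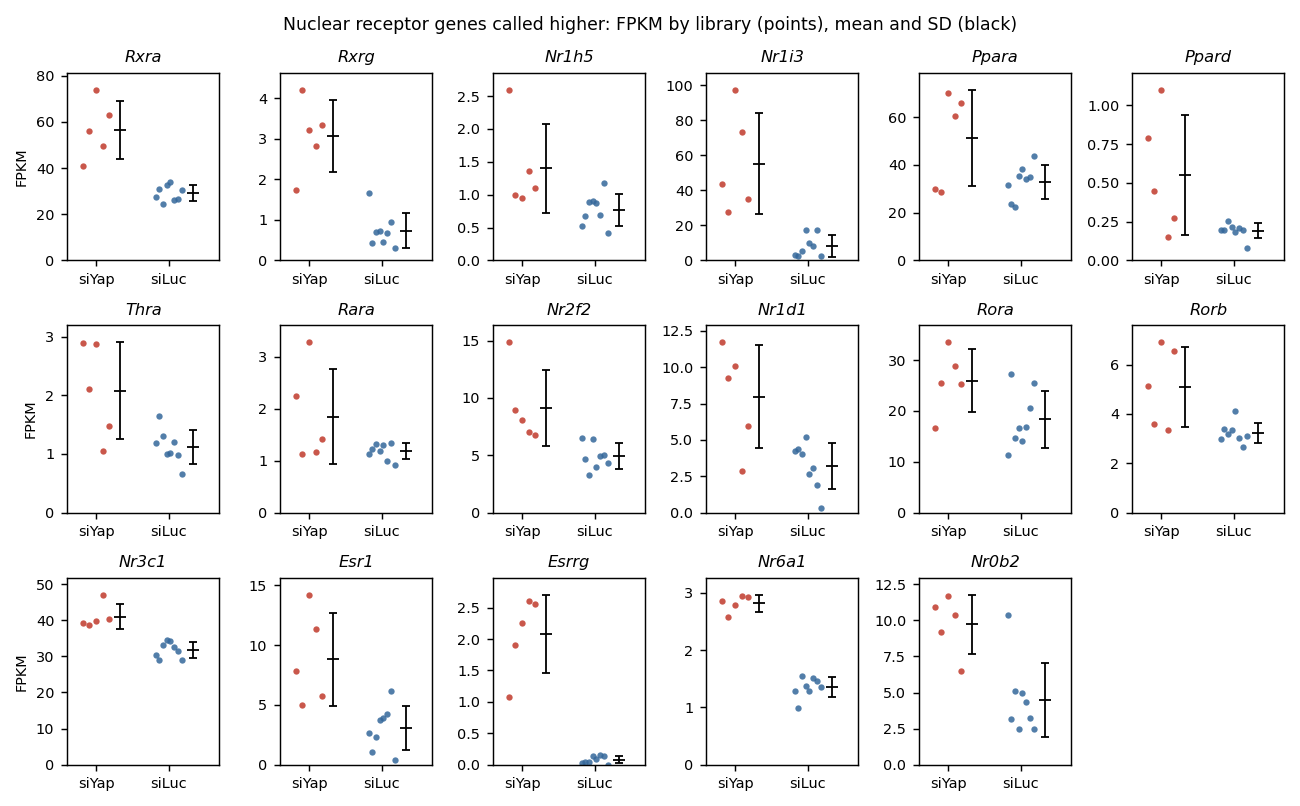
FPKM of the 17 called members in each library, siYap left of siLuc, with mean and SD in black and each axis starting at 0. Points of the groups are apart in 7 panels, and replicates 1 and 3 of siYap (points run in replicate order) lie highest in many of the others.

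Across libraries the 17 called members did not move as a single block. The plot of centred levels shows Esrrg, Nr1i3 and Rxrg high in all siYap libraries, Ppard, Rara and Thra highest in replicates 1 and 3, and Esr1 highest in replicates 3 and 4. Among siLuc libraries, replicate 8 was low for Esr1, Nr1d1, Esrrg and Ppard. It was high for Nr1h3 and Hnf4a, which were not called.

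**Figure D4:**
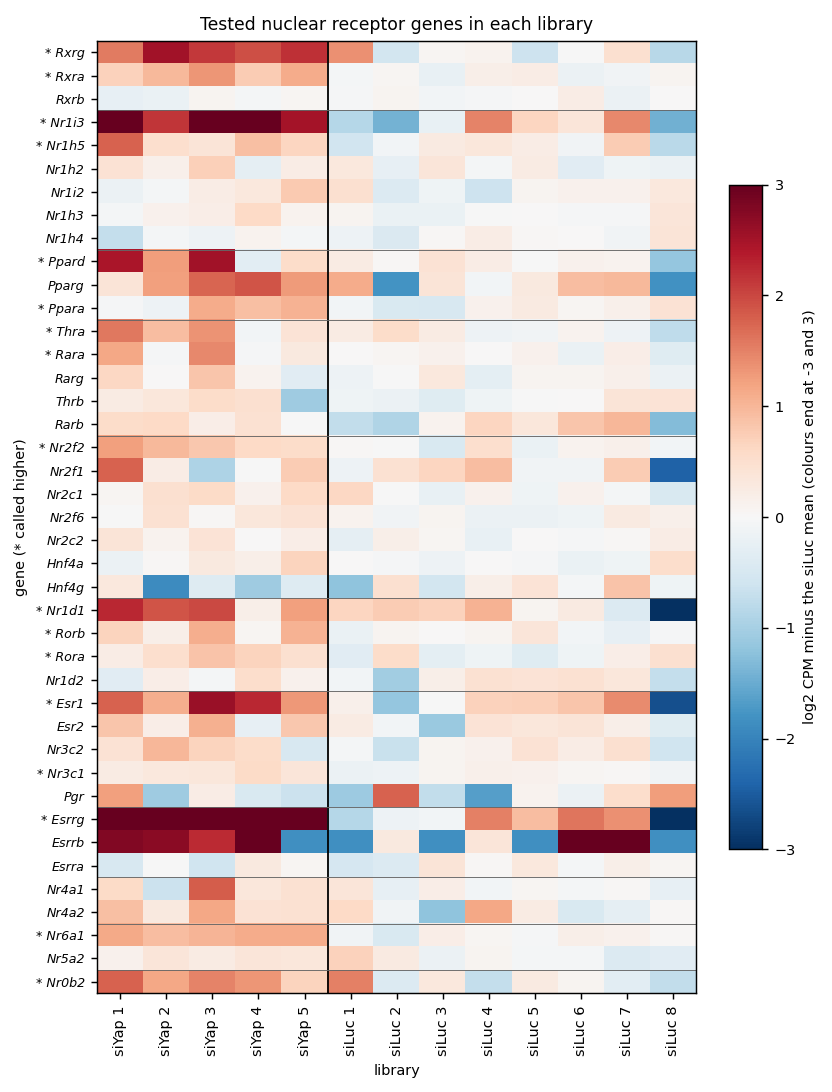
Log2 CPM of the 41 tested members in each library, minus the mean of the siLuc libraries, with siYap libraries left of the line. Red is above and blue below the siLuc mean, and the rows of Rxra, Rxrg, Nr1i3, Nr2f2, Esrrg and Nr6a1 are red in all 5 siYap libraries.

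Each called member was also compared by a two-sided exact permutation test of log2 CPM with 1287 permutations of the group labels. All 17 had an unadjusted p under 0.05, from 0.000777 (the smallest possible) to 0.049. These members had been called on the same difference in the same libraries. Neither these p-values nor those that follow are therefore separate support for the calls. Libraries of a group can share a number in their file names (3 numbers in siYap and 5 in siLuc), which may stand for an animal. Permuting these numbers, with 56 permutations, the exact p ran from 0.0179, the smallest possible, to 0.125, and it was under 0.05 for 12 of the 17. Nr1h5, Ppara, Nr1d1, Rora and Esr1 were above. A further code in the file names begins with 6, 7 or 8, and both treatments occur under each digit. The 17 members had been picked as higher in these same libraries, which makes a higher value within each digit likely beforehand. It is therefore no separate support. All 17 members were higher in siYap within each digit, although digit 8 holds 1 siYap and 1 siLuc library, that siLuc library being replicate 8. Some of these differences were close to 0, the smallest being 0.0042 on the log2 CPM scale for Rora under digit 8 and 0.19 for Ppara under digit 6. For Rxra the differences of siYap over siLuc under digits 6, 7 and 8 were 0.82, 1.06 and 1.05 on the log2 CPM scale, and for Nr1i3 they were 3.75, 2.97 and 3.94.

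Promoter windows were read for the 6 members whose call was kept in all alternative fits, to show the letters beside which these genes start. RefSeq gives windows of 300 bases (250 before and 50 after a start, build GRCm38.p6) for 43 of the 47 members, 64 windows in all. Motifs were searched on both strands. They were the receptor element AGGTCA, its direct repeat spaced by 1 base, the Ror and Rev-erb element TAGGTCA (which contains AGGTCA), the Tcf and Lef letters CTTTGA and CTTTGT, and the Tead letters GGAATG. Shown for each gene is the window with the most matches, the first in the table where windows tie, along the strand of the gene from 5′ to 3′. Capitals mark the matches, and a match on the other strand appears as its reverse complement (TGACCT for AGGTCA).
Rxra chr2:27709042-27709341 (plus strand): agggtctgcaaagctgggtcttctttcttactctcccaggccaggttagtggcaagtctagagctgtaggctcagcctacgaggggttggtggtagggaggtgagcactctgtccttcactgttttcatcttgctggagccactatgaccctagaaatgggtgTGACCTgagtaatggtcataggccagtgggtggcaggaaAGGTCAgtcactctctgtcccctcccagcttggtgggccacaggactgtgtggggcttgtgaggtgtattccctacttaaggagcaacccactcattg
Rxrg chr1:167618015-167618314 (plus strand): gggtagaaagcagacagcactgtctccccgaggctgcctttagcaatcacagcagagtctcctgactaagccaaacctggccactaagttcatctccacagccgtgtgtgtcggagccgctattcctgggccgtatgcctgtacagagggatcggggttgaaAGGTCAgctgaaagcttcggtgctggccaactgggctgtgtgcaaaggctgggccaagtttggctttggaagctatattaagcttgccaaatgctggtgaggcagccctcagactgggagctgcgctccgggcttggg
Nr1i3 chr1:171213720-171214019 (plus strand): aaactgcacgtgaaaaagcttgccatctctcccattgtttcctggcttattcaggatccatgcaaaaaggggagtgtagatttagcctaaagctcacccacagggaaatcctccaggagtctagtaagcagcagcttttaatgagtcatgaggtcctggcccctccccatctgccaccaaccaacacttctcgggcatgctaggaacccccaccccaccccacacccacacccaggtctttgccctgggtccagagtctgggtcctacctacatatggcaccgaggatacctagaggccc
Nr2f2 chr7:70366697-70366996 (minus strand): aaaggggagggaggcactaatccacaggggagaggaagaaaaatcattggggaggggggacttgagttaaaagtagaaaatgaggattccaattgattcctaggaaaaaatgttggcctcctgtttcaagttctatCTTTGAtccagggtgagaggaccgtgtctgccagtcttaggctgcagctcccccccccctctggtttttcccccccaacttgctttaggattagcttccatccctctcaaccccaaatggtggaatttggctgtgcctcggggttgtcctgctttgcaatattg
Esrrg chr1:187608756-187609055 (plus strand): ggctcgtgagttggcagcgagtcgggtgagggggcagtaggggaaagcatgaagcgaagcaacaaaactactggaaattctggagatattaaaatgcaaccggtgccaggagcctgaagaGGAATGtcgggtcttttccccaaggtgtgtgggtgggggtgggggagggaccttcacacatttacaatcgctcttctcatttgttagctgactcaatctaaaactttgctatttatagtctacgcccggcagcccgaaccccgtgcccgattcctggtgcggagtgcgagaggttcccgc
Nr6a1 chr2:38784466-38784765 (minus strand): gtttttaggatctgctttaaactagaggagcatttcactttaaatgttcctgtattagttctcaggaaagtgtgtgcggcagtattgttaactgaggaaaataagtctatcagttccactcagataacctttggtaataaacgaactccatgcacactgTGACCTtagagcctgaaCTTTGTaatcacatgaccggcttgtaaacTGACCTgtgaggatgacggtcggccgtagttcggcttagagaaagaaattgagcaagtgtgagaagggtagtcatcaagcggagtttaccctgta

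The Rxra window, a downstream start, holds AGGTCA at positions 164 and 203 counted from 1 at the 5′ end. The Nr6a1 and Rxrg windows are also downstream starts. The Nr6a1 window holds AGGTCA at positions 160 and 206 with CTTTGT at 177, and the Rxrg window holds AGGTCA at 163. The Esrrg window has GGAATG at 121 and the Nr2f2 window CTTTGA at 137. The Nr1i3 window, its sole one, has none of these letters. The upstream window of Rxra, which has 55 CpG pairs against 1 in the window shown, has no match either. The same holds for the upstream windows of Rxrg and Nr6a1, which have no match.

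Such short motifs are common. AGGTCA was found in 18.8% of the member windows, 15.4% of the 26 windows of called members and 16.3% of all 32851 windows, and GGAATG in 15.6%, 11.5% and 14.7%. CTTTGA was found in 9.38%, 11.5% and 16.0% and CTTTGT in 14.1%, 7.69% and 18.7%. No member window held TAGGTCA (2.61% of all windows) or the direct repeat (0.0396%). These are letter matches within 300 bases of each start and say nothing of binding.

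The proteins through which the receptors act were followed by a list of 19 coregulators. Of these 11 rose, 2 fell and 6 were not called, with a median log2 fold change of 0.40, beside -0.0026 over all genes and 16.0% of genes higher. Nrip1, the corepressor RIP140, was at 5.17 ± 0.905 FPKM in siYap tumours and 3.35 ± 0.294 FPKM in siLuc tumours (log2 fold change 0.62 ± 0.12 SE, adjusted p = 0.00159). The coactivators Crebbp (log2 fold change 0.94 ± 0.19 SE, adjusted p = 0.00175) and Carm1 (log2 fold change 1.02 ± 0.23 SE, adjusted p = 0.00426) also rose. In all 3 genes siYap replicate 3 stood apart as the highest siYap library. Without siYap replicates 1 and 3 the count higher was 7, beside 9.82% of all genes in that fit. The falling genes were Gps2, a subunit of the corepressor complex, and Lcor, and 1 of these calls ended without siLuc replicate 2 or 3 or siYap replicate 3, 4 or 5, while both ended without siYap replicates 1 and 3.

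Of 16 tested targets of CAR and PXR, 7 rose, 1 (Gsta1) fell and 8 were not called, and the median log2 fold change was 1.86. Over all genes 16.0% were higher and 14.8% lower, so the lower count is below the share over all genes. Por, the reductase that feeds electrons to cytochromes P450, was at 167 ± 77.3 FPKM in siYap tumours and 27.9 ± 8.61 FPKM in siLuc tumours (log2 fold change 2.59 ± 0.26 SE, adjusted p = 9.56e-06). Alas1, the first enzyme of heme synthesis, was at 313 ± 156 FPKM in siYap tumours and 81.8 ± 32.3 FPKM in siLuc tumours (log2 fold change 1.93 ± 0.34 SE, adjusted p = 0.000849). Cyp2c29, a cytochrome P450 with close paralogs among which reads may be shared, was at 260.4 ± 149.6 FPKM in siYap tumours and 20.1 ± 27.1 FPKM in siLuc tumours (log2 fold change 3.67 ± 0.79 SE, adjusted p = 0.00378), with replicate 4 highest in each group. The canalicular transporter Abcc2 also rose (log2 fold change 1.02 ± 0.18 SE, adjusted p = 0.000741).

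Of the 18 PPAR alpha targets, 5 rose and 13 were not called, with a median of 0.56, where 16.0% of all genes were higher and 14.8% lower. Pdk4, which blocks pyruvate oxidation, was at 18.2 ± 8.196 FPKM in siYap tumours and 1.95 ± 1.23 FPKM in siLuc tumours (log2 fold change 3.28 ± 0.41 SE, adjusted p = 8.07e-05). The omega-hydroxylases Cyp4a10 and Cyp4a14 were at 63.1 ± 61.6 and 64.04 ± 65.5 FPKM in siYap tumours, against 2.66 ± 2.23 and 2.29 ± 2.86 FPKM in siLuc tumours, and Cpt2, of the mitochondrial carnitine shuttle, rose with a log2 fold change of 0.82 ± 0.16 (SE). The count higher was 8 without siLuc replicate 1, a fit in which 2397 of 15058 genes were higher.

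Of 12 FXR targets 4 rose and 2 fell, with a median of 0.09, where 16.0% of all genes were higher and 14.8% lower, so the lower count is near the background. The list mixes genes that FXR induces with genes that it represses, so its median gives no direction of FXR action. Cyp7a1, the rate-limiting enzyme of bile acid synthesis that FXR and SHP repress, was at 344 ± 198 FPKM in siYap tumours and 37.95 ± 22.3 FPKM in siLuc tumours (log2 fold change 3.18 ± 0.59 SE, adjusted p = 0.00143), while Slc51b, a bile acid exporter that FXR induces, was at 0.697 ± 0.756 FPKM in siYap tumours and 8.82 ± 4.17 FPKM in siLuc tumours (log2 fold change -3.60 ± 0.64 SE, adjusted p = 0.000839). The other lower call, Sdc1, ended without siLuc replicate 3, 4 or 5 or siYap replicate 2, 3 or 4. Of 12 LXR targets 3 rose and 1 fell, with a median of 0.16, the lower count being below the share over all genes. Abca1, the cholesterol exporter, was at 69.3 ± 4.76 FPKM in siYap tumours and 48.6 ± 7.597 FPKM in siLuc tumours (log2 fold change 0.52 ± 0.14 SE, adjusted p = 0.00958), and Fasn, the fatty acid synthase, was at 59.1 ± 50.8 FPKM in siYap tumours and 16.4 ± 5.08 FPKM in siLuc tumours (log2 fold change 1.86 ± 0.37 SE, adjusted p = 0.0021), with siYap replicate 3 far above the others. The rise of Lpl, a lipase that frees fatty acids from lipoproteins, did not stand without siLuc replicate 3, 4, 5, 6, 7 or 8 or siYap replicate 1, 2 or 5 (adjusted p of up to 0.11). The fall of Abcg5, a sterol exporter to bile, did not stand without siLuc replicate 1, 4, 7 or 8 or siYap replicate 1, 2 or 3.

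Among hormone receptor targets, 3 of 7 thyroid hormone targets rose and 4 were not called (median 0.71), where 16.0% of all genes were higher and 14.8% lower. The transporter Slc16a10 was at 59.02 ± 16.3 FPKM in siYap tumours and 4.32 ± 1.64 FPKM in siLuc tumours (log2 fold change 4.08 ± 0.29 SE, adjusted p = 1.08e-06). Of 13 glucocorticoid receptor targets 6 rose and 1 fell (median 1.15), the lower count being below the share over all genes. Tat, tyrosine aminotransferase, was at 409 ± 29.9 FPKM in siYap tumours and 139.5 ± 36.4 FPKM in siLuc tumours (log2 fold change 1.56 ± 0.18 SE, adjusted p = 3.86e-05), while Sgk1, a kinase of the same list, fell (log2 fold change -0.76 ± 0.22 SE, adjusted p = 0.0163). Without siYap replicate 5 the count higher was 2, near the share over all genes in that fit (2329 of 15264 higher). Neutrophil markers were higher in siYap as given above, and Lcn2 of this list is also a neutrophil granule gene (log2 fold change 1.15 ± 0.32 SE, adjusted p = 0.0155). Of 6 tested retinoic acid targets, 1 rose and 2 fell (median 0.18), the higher count being near the share over all genes. Dhrs3, an enzyme that reduces retinal, was at 64.4 ± 8.84 FPKM in siYap tumours and 92.1 ± 16.3 FPKM in siLuc tumours (log2 fold change -0.52 ± 0.15 SE, adjusted p = 0.0139), and the rise of Cyp26b1 at 0.165 FPKM in siYap, against 0.0447 FPKM in siLuc tumours, did not stand without siLuc replicate 1, 2, 3, 4 or 5 or siYap replicate 1, 2 or 3.

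Of 5 tested Rev-erb and Ror targets E2f8 alone was called, a count near the share over all genes (16.0% higher). E2f8, a cell cycle factor, rose to 3.53 ± 1.604 FPKM in siYap tumours, against 0.522 ± 0.294 FPKM in siLuc tumours (log2 fold change 2.78 ± 0.34 SE, adjusted p = 5.15e-05). Arntl was at 1.199 ± 0.907 FPKM in siYap tumours and 3.06 ± 4.04 FPKM in siLuc tumours (log2 fold change -1.30 ± 0.94 SE, adjusted p = 0.311), and it was called lower with the first digit of the file-name code as a term (log2 fold change -1.16, adjusted p = 0.0122). Of 15 HNF4 alpha targets 3 rose and 3 fell, counts near the shares over all genes (16.0% higher and 14.8% lower), with a median of 0.20. Apoc2, an apolipoprotein that activates lipoprotein lipase, was at 68.6 ± 20.8 FPKM in siYap tumours and 981 ± 334 FPKM in siLuc tumours (log2 fold change -3.81 ± 0.38 SE, adjusted p = 1.05e-05), while Cyp7a1, with the values given above, was among those that rose. Cyp7a1, Cyp8b1 and G6pc each stand in 2 of the 10 lists.

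**Figure D5:**
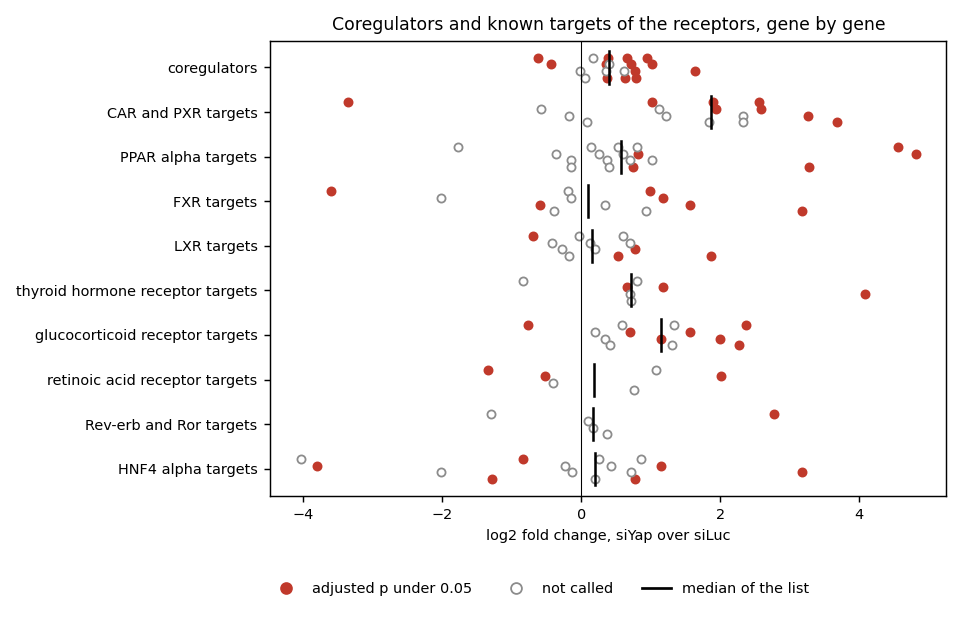
Log2 fold change of each tested gene in the coregulator list and the 9 target lists, filled where the adjusted p was under 0.05, with the list's median as a black line. The medians lie between 0.09 for FXR targets and 1.86 for CAR and PXR targets, and single genes range widely on both sides of 0.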

How the data were processed

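RNA of mouse liver tumours was sequenced in 13 libraries, 5 siYap and 8 siLuc, grouped by their titles. Per the labels' protocols, libraries came from the ScriptSeq Complete Gold kit and a HiSeq2500 sequencer. The build was mm10 and the tools were Trimmomatic 0.30, TopHat2 2.0.8, Cufflinks and Cuffdiff 2.1.1, per the submitters' processing notes. Their annotation, strand setting and handling of multiply matching reads are not given in the sources used, so receptors that share exons with another gene are uncertain. The authors deposited 1 table per library, over 23361 gene symbols. Its columns, per the file headers, are raw fragments, which are estimated counts without scaling (97.6% to 98.0% of values within 1e-06 of a whole number), and FPKM scaled by Cuffdiff. The replicate indices of the siYap tables have gaps, so other libraries, not analysed here, may have entered that scaling. For 3 very abundant genes Cuffdiff gave no estimate, and they were left out. A series-wide FPKM table was not used.

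Estimated counts were rounded and tested with edgeR 4.0.16 in R 4.3.3 (quasi-likelihood F test, robust, TMM, default filter by group, no covariates). This left 15132 genes, with Benjamini-Hochberg adjustment over all of them and calls at an adjusted p under 0.05. Unless another fit is named, fold changes and adjusted p come from this one, with standard errors from the fold change divided by the root of F. The step was tested on simulated data. Depth was 23637021 to 37043914 fragments per library. Gene positions and shared exons are from GENCODE M21 (GRCm38, the same assembly as mm10), in which all 47 symbols were found. Promoter windows are from RefSeq (GRCm38.p6).

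The 47 members were given by symbol, and members and lists were chosen with earlier results of these data known. Values by library are given for called members averaging 1 FPKM or more in a group and for other members averaging 10 FPKM or more, and up to 4 genes of each list with the smallest p were open to naming, while single values of some list genes are not reported here. Gsta1, Sdc1, Gps2, Lcor and the sex-linked genes are outside the rule and were picked with their values in view. Exact permutation p-values are unadjusted over 17 members. The 25 alternatives were DESeq2 1.42.0 size factors or upper-quartile scaling, no filter or one at a mean count of 50, DESeq2's Wald test, limma 3.58.1 on log2 FPKM with 1 or 0.1 added (genes reaching 1 FPKM in 5 libraries), the replicate number as a block, counts summed per file-name number, that number as a random effect, the file-code digit as a term, each library left out, and siYap replicates 1 and 3 left out together.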

Additional observations from a re-analysis of the deposited data

Results flagged for a closer look

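A library was set apart where its gap to the nearest library of its group was a large part of the group's range (Dixon's criterion at 95%). This held for 28 of 156 groups of values examined. For independent groups of normally distributed values about 1 in 20 would be set apart. FPKM values need not be so distributed and the groups share the same 13 libraries, so that rate gives no measure of excess. Each value below stands beside the range of the other libraries of its group.

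Among the receptors, siYap replicate 1 stood high for Nr1h5 (2.59 FPKM against 0.955 to 1.35 FPKM) and Nr2f2 (14.8 FPKM against 6.77 to 8.91 FPKM). siYap replicate 3 stood high for Nr4a1 (1.903 FPKM against 0.333 to 0.759 FPKM), siYap replicate 4 for Nr3c1 (47.1 FPKM against 38.5 to 40.3 FPKM), and siYap replicate 5 stood low for Thrb (4.61 FPKM against 12.2 to 14.4 FPKM). siLuc replicate 1 stood high for Rxrg (1.65 FPKM against 0.315 to 0.935 FPKM), Nr2c1 (8.56 FPKM against 3.54 to 5.301 FPKM), Nr2f6 (20.98 FPKM against 10.1 to 13.6 FPKM) and Nr0b2 (10.3 FPKM against 2.46 to 5.08 FPKM). The male siLuc replicate 8 stood high for Nr1h3 (36.9 FPKM against 24.5 to 28.6 FPKM) and Hnf4a (127 FPKM against 76.2 to 88.7 FPKM) and low for Ppard (0.0821 FPKM against 0.184 to 0.253 FPKM).

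Among coregulators and targets, siYap replicate 3 stood high for Nrip1 (6.73 FPKM against 4.45 to 5.02 FPKM), Crebbp (17.4 FPKM against 7.28 to 8.84 FPKM), Carm1 (4.24 FPKM against 1.58 to 1.95 FPKM), Fasn (148 FPKM against 23.6 to 47.6 FPKM) and Zbtb16 (19.7 FPKM against 5.62 to 9.65 FPKM), siYap replicate 4 for Cyp2c29 (519 FPKM against 134 to 241 FPKM) and siYap replicate 1 for Cyp26b1 (0.417 FPKM against 0.0534 to 0.1505 FPKM). siLuc replicate 1 stood high for Pdk4 (4.57 FPKM against 0.983 to 2.58 FPKM), Cpt2 (18.8 FPKM against 8.42 to 13.3 FPKM) and Lpl (88.8 FPKM against 32.7 to 52.7 FPKM) and low for Crebbp (3.37 FPKM against 4.89 to 6.22 FPKM). siLuc replicate 4 stood high for Cyp2c29 (82.7 FPKM against 2.17 to 30.5 FPKM), Cyp4a10 (7.33 FPKM against 0.461 to 3.64 FPKM) and Cyp4a14 (8.82 FPKM against 0.206 to 3.52 FPKM), siLuc replicate 2 for E2f8 (1.18 FPKM against 0.228 to 0.603 FPKM) and siLuc replicate 8 for Clock (18.3 FPKM against 8.64 to 13.2 FPKM).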

How the results depend on the processing

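The sign of all 17 called members was kept in each alternative in which they were tested, and 6 of the calls (Rxra, Rxrg, Nr1i3, Nr2f2, Esrrg and Nr6a1) were kept in all 25. Leaving out each library in turn kept 8, the further ones being Ppard and Rorb, and gave 10 to 16 members higher (10 without siYap replicate 3). With limma on log2(FPKM + 0.1), 11 of 33 tested members were higher, beside 1705 of 12239 genes. With counts summed per file-name number, 10 of 42 were higher, beside 1901 of 15623 genes. Without siYap replicates 1 and 3, 8 of 43 were higher, beside 1512 of 15395 genes. The main fit had 17 of 41, beside 2422 of 15132 genes. For all genes the count called was 4668, 3325 to 4633 without single libraries and 2984 without siYap replicates 1 and 3. The 7 calls lost with summed counts were Nr1h5, Ppara, Thra, Nr1d1, Rora, Nr3c1 and Esr1 (adjusted p 0.0576 to 0.197). In the alternatives not named here and below, the counts of members higher and of all genes called lay within 1.5 times of the main ones. Counts in the short lists moved more, among them PPAR alpha targets higher (8 with DESeq2's Wald test, beside 5), LXR targets lower (2 with upper-quartile scaling or limma, beside 1), retinoic acid targets higher (0 with limma or the digit as a term, beside 1) and Rev-erb and Ror targets lower (1 without a filter or with the digit as a term, beside 0). With the replicate number as a block, 10 of 41 members were higher, beside 1199 of 15132 genes, and 2325 genes were called in either direction. The number does not pair the libraries, since residuals of same-numbered libraries correlated at -0.12 to 0.13. Of members not called, Pparg, Nr2f6 and Nr5a2 passed the test under at least 1 alternative, Nr2f6 without siYap replicates 1 and 3 (adjusted p = 0.0351). Nr1d2, near 0, ran from -0.0979 to 0.121 on the log2 scale without single libraries, and Clock from -0.0948 to 0.225 and at -0.0415 with the digit as a term, so neither has a direction. The causes of these shifts were not tested. The 6 members not tested had no more than 24 fragments in any library, and Esrrb, tested and not called, no more than 19. At such depth a difference may go undetected. Without the filter 46 members were tested.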
